A study of Homo sapiens with 6 samples.

Results

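The genes described here encode the proteasome and the factors listed with it. They are the genes whose pathway annotation in the deposited table contains the KEGG pathway hsa03050 (proteasome), without the cytokine gene IFNG, which that pathway also lists and which was at 0 in all libraries. This gave 44 genes of the 20030 listed. They were grouped by symbol into 16 core genes (PSMA and PSMB), 3 immunoproteasome genes (PSMB8, PSMB9 and PSMB10), 17 cap genes (PSMC and PSMD) and 4 activator genes (PSME), and 4 others (ADRM1, POMP, PSMF1 and SEM1) were left ungrouped. The rule itself used no expression value, though the members were chosen with earlier results of these data known.

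The proteasome degrades proteins that carry a ubiquitin chain. Its barrel-shaped core is built of alpha rings, which gate the channel, and beta rings, which hold the cutting sites of PSMB5, PSMB6 and PSMB7, while a cap (a base with a ring of ATPases and a lid that removes ubiquitin) binds, unfolds and feeds the substrate. Interferon-gamma is known to induce the catalytic subunits PSMB8, PSMB9 and PSMB10, which take the places of PSMB5, PSMB6 and PSMB7 to form the immunoproteasome, and also the activator genes PSME1 and PSME2. NRF1 (gene NFE2L1) is known as a transcription factor that raises the subunit genes when proteasome activity falls.

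mRNA sequencing was performed in 786-O cells, an established human line from a clear cell carcinoma of the kidney, at passages 16 to 18. The shYB1 cells were stably infected with lentivirus carrying a small hairpin RNA (shRNA) against YB1, a Y-box binding protein encoded by YBX1, and the vector cells carried a scrambled, nonsense shRNA. Both kinds of cell were selected with puromycin, and each group had 3 libraries. The series' text speaks of several independent shRNAs, whereas the labels give a single shYB1 group. Neither says whether the libraries of a group came from separate cultures, so the p-values measure only the spread between these libraries, which may be technical.

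The targeted YBX1 mRNA fell from 366, 373 and 378 FPKM (fragments scaled to transcript length and to the mapped fragments of the library) in vector cells to 167, 166 and 173 FPKM in shYB1 cells, with a log2 fold change of -1.14 (limma, Benjamini-Hochberg adjusted p = 1.53e-08). FPKM hold no counts, so the depth of the libraries is unknown. Of 8 markers of renal epithelium and clear cell carcinoma, all 8 reached a mean of 1 FPKM, and PAX2 was higher and CDH6 lower in shYB1 cells. Among markers of blood cells, which carry the immunoproteasome constitutively, CD3E was listed at 0 in all libraries, PTPRC reached at most 0.0164 FPKM, and CD68 fell from a mean of 25.05 to 22.4 FPKM. The 4 endothelial and fibroblast markers (PECAM1, VWF, COL1A1 and PDGFRB) were at most 0.406 FPKM in any library. In bulk RNA, fewer cells of a type and less RNA per cell cannot be told apart.

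The promoters below are the 250 bases before the start of 6 genes, from RefSeq on build GRCh38.p14 and read on the strand of the gene. PSMA3, PSMD2 and PSMD8 are shown because they had the largest fold changes among the members, and PSMB8, PSMB9 and PSMB10 because they are the immunoproteasome genes. Capitals mark matches to 4 motifs searched on both strands, namely CCAAT (the core of the Y-box, for which YB1 is named), TGANNNNGC (a partial site of the Maf and CNC factors, the latter including NRF1), TTCNNNGAA (a STAT site) and an IRF site (GAAA repeated after any 2 bases), where N is any base.
PSMA3 (chr14:58244593-58244842, plus strand): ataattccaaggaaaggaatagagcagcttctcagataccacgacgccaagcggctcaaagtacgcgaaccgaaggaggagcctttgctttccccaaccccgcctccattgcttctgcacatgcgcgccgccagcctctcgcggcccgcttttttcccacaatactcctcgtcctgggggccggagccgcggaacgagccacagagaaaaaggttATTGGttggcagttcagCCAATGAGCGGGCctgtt
PSMD2 (chr3:184298991-184299240, plus strand): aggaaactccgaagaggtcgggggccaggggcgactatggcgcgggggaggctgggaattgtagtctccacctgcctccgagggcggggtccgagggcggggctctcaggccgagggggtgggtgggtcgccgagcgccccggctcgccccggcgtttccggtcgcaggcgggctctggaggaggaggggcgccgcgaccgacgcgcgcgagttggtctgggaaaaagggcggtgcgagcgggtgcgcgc
PSMD8 (chr19:38374321-38374570, plus strand): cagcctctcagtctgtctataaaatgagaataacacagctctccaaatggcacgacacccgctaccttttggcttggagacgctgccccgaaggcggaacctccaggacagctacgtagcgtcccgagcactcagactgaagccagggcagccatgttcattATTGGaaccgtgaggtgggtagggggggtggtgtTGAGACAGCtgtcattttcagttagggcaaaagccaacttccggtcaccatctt
PSMB8 (chr6:32844680-32844929, minus strand): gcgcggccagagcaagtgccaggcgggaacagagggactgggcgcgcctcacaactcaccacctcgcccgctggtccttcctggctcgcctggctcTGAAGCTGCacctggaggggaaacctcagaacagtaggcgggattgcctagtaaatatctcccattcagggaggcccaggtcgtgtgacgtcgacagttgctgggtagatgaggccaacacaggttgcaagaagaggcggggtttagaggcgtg
PSMB9 (chr6:32853942-32854191, plus strand): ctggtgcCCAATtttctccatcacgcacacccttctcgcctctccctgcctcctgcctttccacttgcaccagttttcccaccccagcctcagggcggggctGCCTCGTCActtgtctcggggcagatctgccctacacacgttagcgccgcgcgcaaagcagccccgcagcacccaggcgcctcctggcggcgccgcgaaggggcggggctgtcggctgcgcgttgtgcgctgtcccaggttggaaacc
PSMB10 (chr16:67936851-67937100, minus strand): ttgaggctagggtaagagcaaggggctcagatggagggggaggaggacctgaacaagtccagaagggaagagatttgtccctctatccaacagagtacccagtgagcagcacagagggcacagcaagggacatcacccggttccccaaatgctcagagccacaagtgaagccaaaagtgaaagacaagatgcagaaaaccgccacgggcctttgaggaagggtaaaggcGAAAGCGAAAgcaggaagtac

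In PSMA3, the CCAAT nearest to the start shares its last base with the TGANNNNGC match beside it, and a further CCAAT lay on the other strand. PSMD8 held CCAAT on the other strand and TGANNNNGC. None of the 4 motifs was found in these 250 bases of PSMD2. PSMB9 held CCAAT and TGANNNNGC, PSMB8 held TGANNNNGC and PSMB10 held the IRF site, whose first base lay 21 bases before the start. Promoters were found in the table for 39 of the 44 genes, the exceptions being PSMA7, PSMB1, PSMB6, PSMB7 and PSMD4. CCAAT was present in 17 of these 39 promoters (43.6%) and in 32.0% of all 35116 promoters of the table. TGANNNNGC was present in 20 of 39 (51.3%) against 35.2% of all, TTCNNNGAA in 5 (12.8%) against 6.57%, and the IRF site in 4 (10.3%) against 3.02%. Among the members that were higher in shYB1 cells, 8 of 17 promoters held CCAAT, and among those tested and not called, 8 of 20. These matches are descriptions of the letters and were not tested.

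PSMA8, a testis form of an alpha subunit, and PSMB11, the catalytic subunit of the thymus, were listed at 0 in all 6 libraries. The other 42 members averaged 1 FPKM or more, the lowest single value being 4.91 FPKM (PSME4), and all 42 entered the test. Levels in vector cells, which FPKM give per length, ran from a mean of 5.34 FPKM for PSME4 to 227 FPKM for PSMB4. Within the core, PSMB4 (219 to 235 FPKM), PSMA7 (147 to 171 FPKM), PSMB3 (126 to 138 FPKM) and PSMB1 (97.4 to 104 FPKM) stood in this order without overlap of their vector libraries. The next in order, PSMB7 (83.6 to 94.0 FPKM) and PSMA2 (86.4 to 87.1 FPKM), overlapped. PSMA5 had the lowest level of the core subunits at 11.7 FPKM ± 0.284 (SD, n = 3). The median over subunits of the mean vector level was 58.6 FPKM for the core, 23.1 FPKM for the cap, 21.4 FPKM for the immunoproteasome and 23.7 FPKM for the activators.

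**Figure D1:**
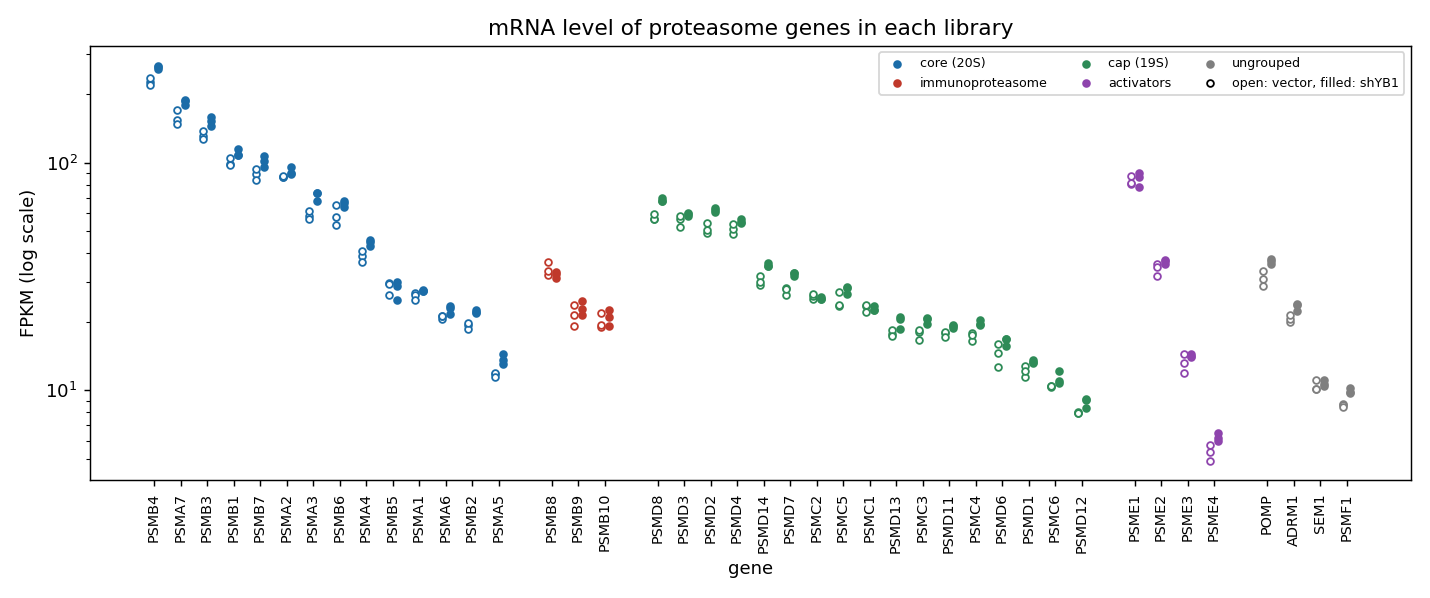
mRNA level of the 42 detected proteasome genes, as FPKM on a log axis, with 1 point for each library, open for vector and filled for shYB1, and coloured by particle. PSMB4 was highest and PSME4 lowest, and the shYB1 points lay above the vector points for most core and cap genes.

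Of the 42 members tested, 20 were higher in shYB1 than in vector cells, by small amounts, 0 were lower and 22 did not pass the test (limma, Benjamini-Hochberg adjusted p under 0.05), and no member had an unadjusted p under 0.05 in the lower direction. Among all 10439 genes tested, 18.7% were called higher and 6.93% lower. With only genes averaging at least 5 FPKM, which kept all 42 members, 26.0% of 6547 genes and 22 members were called higher. The folds of the 20 called members lay between 1.10 and 1.22 (median 1.16), and 0 of 42 reached the fold change of 2 that the study's methods set. The median log2 fold change was 0.17 over the members and 0.055 over all genes tested, 38 of the 42 members were above 0, and 64.1% of all genes tested were above 0. In 29 of 42 members (69.0%) the lowest shYB1 value exceeded the highest vector value, against 30.1% of all genes tested, and in 0 members the order was the opposite, against 12.5% of all genes tested. The direction of calls over all genes depended on the scaling, since 73.0% of calls were in the higher direction with FPKM as deposited and 48.8% with median-of-ratios size factors. With that scaling 14 members were called higher and 0 lower, against 11.4% of all genes called higher, and the members' median stayed above that of all genes by 0.11 with either scaling.

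Each shYB1 library showed the shift. The median over members of the deviation from the vector mean, on the log2(FPKM + 0.1) scale, was -0.014, -0.024 and 0.043 for the vector cells and 0.13, 0.16 and 0.18 for the shYB1 cells. Over all genes tested the same median was between 0.053 and 0.058 in the shYB1 libraries. The members together took 0.627%, 0.617% and 0.634% of the FPKM total in vector cells and 0.697%, 0.699% and 0.703% in shYB1 cells, and these groups did not overlap.

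**Figure D2:**
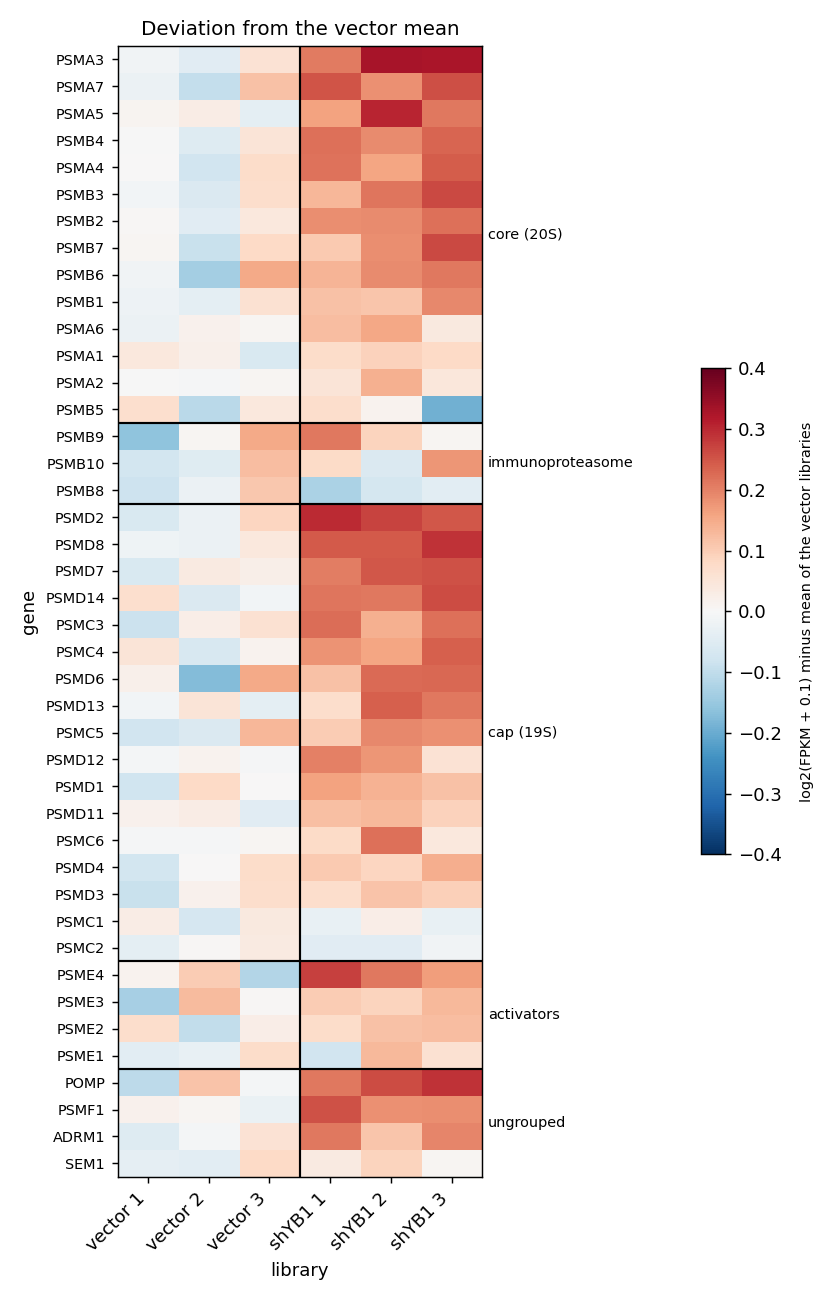
Deviation of each of the 42 members (rows, by particle) from the mean of the vector libraries in each library (columns), in units of log2(FPKM + 0.1), with red above and blue below. The shYB1 columns are red for most core and cap genes, while PSMB5, PSMB8, PSMC1 and PSMC2 have log2 fold changes below 0.

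Among the core subunits, 9 of 14 tested were higher in shYB1 cells and 0 lower, and the median log2 fold change was 0.19. Over all genes tested, the share called higher was 18.7% and the median log2 fold change was 0.055. The alpha ring gave 4 of 7 (PSMA3, PSMA4, PSMA5 and PSMA7), and the constitutive beta ring gave 5 of 7 (PSMB1, PSMB2, PSMB3, PSMB4 and PSMB7). PSMA3, an alpha ring subunit, was at 58.1, 56.8 and 61.1 FPKM in vector cells and at 67.7, 73.6 and 73.6 FPKM in shYB1 cells. The lowest shYB1 library was above the highest vector library, with a log2 fold change of 0.29 (SE 0.043, limma adjusted p = 0.0012), the largest among the members. PSMB4, a beta ring subunit without a cutting site and the most abundant member, rose from 227, 219 and 235 FPKM to 264, 259 and 267 FPKM (log2 fold change 0.21, SE 0.034, limma adjusted p = 0.00173). PSMA7 was at 155, 147 and 171 FPKM in vector cells and at 187, 179 and 188 FPKM in shYB1 cells (log2 fold change 0.23, limma adjusted p = 0.00927). PSMA5 rose by a log2 fold change of 0.23, PSMA4 by 0.21, PSMB3 by 0.20, PSMB2 by 0.20 and PSMB1 by 0.14.

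Of the 3 constitutive catalytic subunits, 1 was called higher, against 18.7% of all genes tested. PSMB7, which carries the trypsin-like site, was at 89.5, 83.6 and 94.0 FPKM in vector cells and at 95.6, 101 and 107 FPKM in shYB1 cells (log2 fold change 0.19, limma adjusted p = 0.0253). PSMB6, which carries the caspase-like site, was at 57.8, 53.1 and 64.9 FPKM and then at 64.2, 66.6 and 67.6 FPKM, so the groups overlapped (log2 fold change 0.18, limma adjusted p = 0.0698). PSMB5, which carries the chymotrypsin-like site and is the main target of proteasome inhibitor drugs, was at 29.7, 26.3 and 29.2 FPKM in vector cells and at 29.8, 28.6 and 24.9 FPKM in shYB1 cells. The lowest of these 6 values was shYB1 replicate 3, and the log2 fold change was -0.036 (95% interval -0.20 to 0.12, limma adjusted p = 0.746). Without that library it was 0.041. The differences between these subunits in their response were not tested. PSMA1, PSMA2 and PSMA6 were above the vector libraries in every shYB1 library with log2 fold changes of 0.082, 0.080 and 0.11, and did not pass the test. They share 29.7%, 49.4% and 56.6% of their 50-base transcript words with other annotated transcripts, mostly overlapping gene models, so their values are uncertain.

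**Figure D3:**
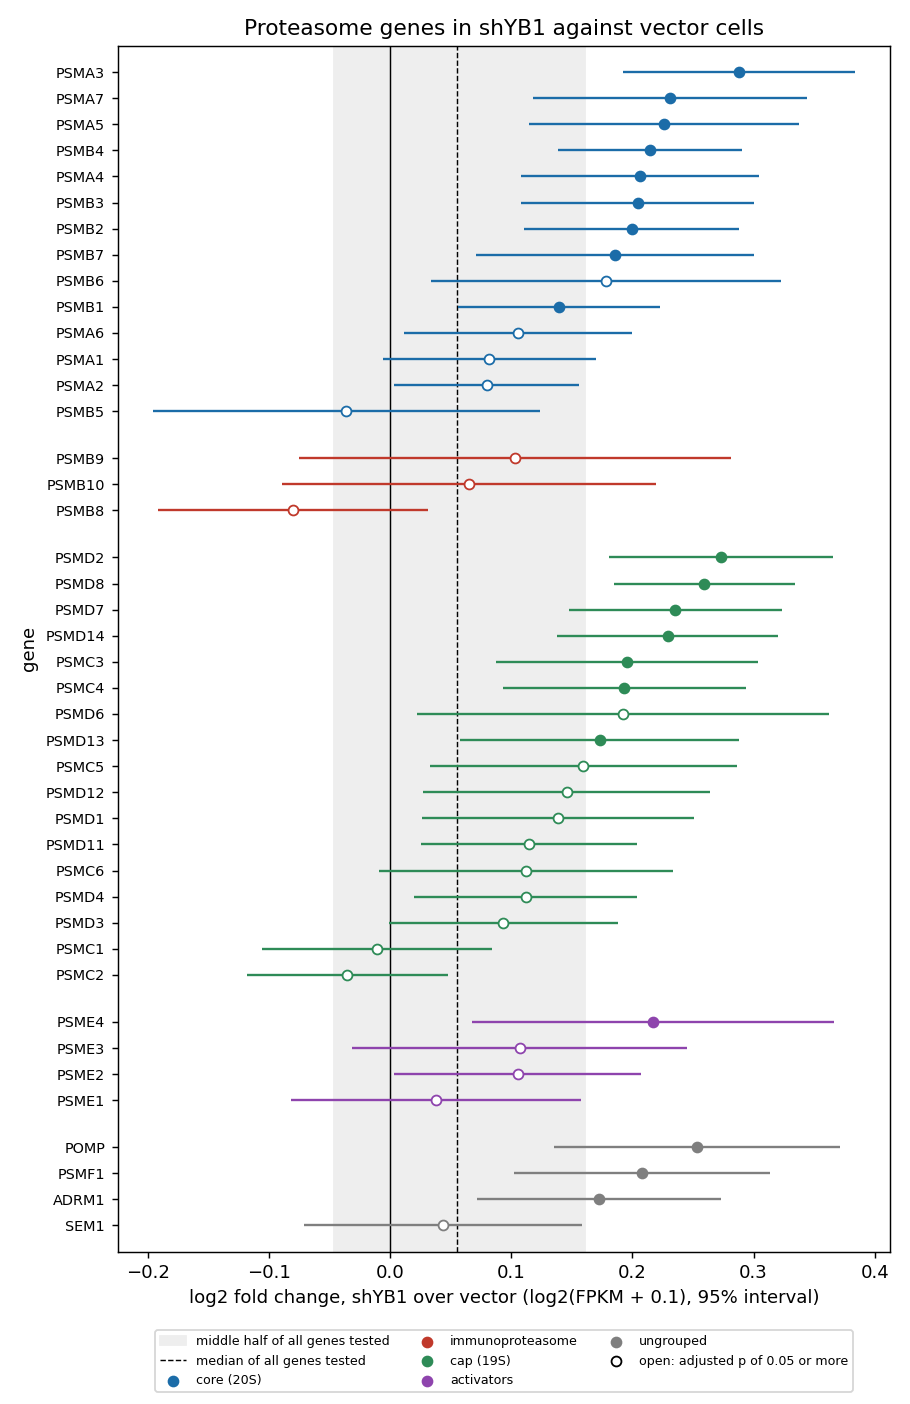
Log2 fold change of shYB1 over vector, on the log2(FPKM + 0.1) scale, for each of the 42 members by particle, with the 95% interval of the limma fit. Filled points passed the adjusted test, the dashed line is the median over all genes tested (0.055), and the grey band is the middle 50% of all genes (-0.047 to 0.16).

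None of the 3 immunoproteasome genes passed the test, and the libraries of both groups overlapped in each. PSMB8 and PSMB9 lie near each other on chromosome 6 (chr6:32840717-32844679 and chr6:32854192-32859851), in the same cluster as the peptide transporter genes TAP1 and TAP2. PSMB10 is on chromosome 16 (chr16:67934506-67936850). PSMB8 was at 32.1, 33.4 and 36.6 FPKM in vector cells and at 31.1, 32.3 and 33.0 FPKM in shYB1 cells, with a log2 fold change of -0.080 (95% interval -0.19 to 0.031, limma adjusted p = 0.269), and it was called lower with quantile normalization (limma adjusted p = 0.048). PSMB9 was at 19.1, 21.5 and 23.7 FPKM and at 24.7, 22.7 and 21.5 FPKM, with a log2 fold change of 0.10 (95% interval -0.075 to 0.28, limma adjusted p = 0.373). Its vector values alone spanned more than the difference between the group means. PSMB10 was at 19.01, 19.3 and 21.8 FPKM in vector cells and at 21.1, 19.2 and 22.6 FPKM in shYB1 cells, with a log2 fold change of 0.065 (95% interval -0.089 to 0.22, limma adjusted p = 0.526). The intervals of PSMB9 and PSMB10 include the median change of the core subunits. PSMB8 shares 24.3% and PSMB9 9.94% of their transcript words with the antisense gene PSMB8-AS1, and PSMB10 shares 36.7% with an overlapping gene model. Whether counting used strand is not given in the sources used here.

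The ratio of each immunoproteasome subunit to the constitutive subunit it replaces was taken within a library, where it does not depend on the scaling of libraries. PSMB9 over PSMB6 was 0.367 ± 0.0369 (SD, n = 3) in vector cells and 0.348 ± 0.0341 in shYB1 cells. PSMB10 over PSMB7 was 0.225 ± 0.011 and 0.207 ± 0.0159, and PSMB8 over PSMB5 was 1.1998 ± 0.105 and 1.17 ± 0.145. The groups overlapped in all 3 ratios. Exact two-sided permutation tests gave p = 0.6, 0.2 and 0.9 in this order, with Benjamini-Hochberg adjusted values over the 3 ratios of 0.9, 0.6 and 0.9, and 3 libraries against 3 cannot give less than 0.1. Summed over subunits, the immunoproteasome was at 70.2, 74.2 and 82.1 FPKM in vector cells and at 76.9, 74.3 and 77.1 FPKM in shYB1 cells. As a share of the summed core it was 0.0669, 0.0733 and 0.0744 in vector cells and 0.0650, 0.0622 and 0.0631 in shYB1 cells, so this ratio was lower in every shYB1 library, and it was given no test.

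**Figure D4:**
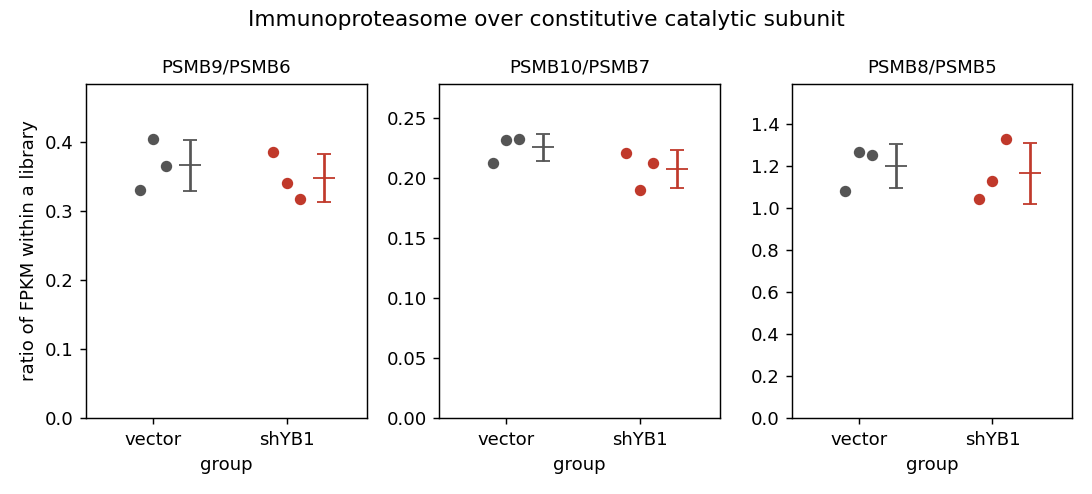
Ratio of the FPKM of an immunoproteasome subunit to that of the constitutive catalytic subunit it replaces, in each of the 3 vector and 3 shYB1 libraries, with the mean and SD beside the points and axes from 0. In all 3 ratios the shYB1 points overlap the vector points.

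Of the 17 cap genes, 7 were higher in shYB1 cells and 0 lower, and the median log2 fold change was 0.16. Over all genes tested, the share called higher was 18.7% and the median log2 fold change was 0.055. The base gave 3 of 9 (PSMC3, PSMC4 and PSMD2) and the lid 4 of 8 (PSMD7, PSMD8, PSMD13 and PSMD14). PSMD2, a large scaffold of the base that docks shuttle factors, was at 49.2, 50.4 and 54.4 FPKM in vector cells and at 63.1, 61.9 and 60.9 FPKM in shYB1 cells (log2 fold change 0.27, SE 0.042, limma adjusted p = 0.0013). PSMD8, a lid subunit, was at 56.8, 56.5 and 59.2 FPKM and at 68.2, 68.1 and 70.2 FPKM (log2 fold change 0.26, SE 0.034, limma adjusted p = 0.000515). In both, every shYB1 library was above every vector library, and in PSMD8 the gap was wide compared with the spread within the groups. PSMD14, the lid enzyme that cuts the ubiquitin chain off the substrate, rose from 31.7, 29.03 and 30.01 FPKM to 35.1, 35.0 and 36.2 FPKM (log2 fold change 0.23, limma adjusted p = 0.00305). Its partner PSMD7 rose from 26.3, 28.1 and 27.9 FPKM to 31.6, 32.6 and 32.8 FPKM (log2 fold change 0.24, limma adjusted p = 0.00217). PSMD7 shares 38.3% of its transcript words with other annotated transcripts, so its value is uncertain. PSMD2 shares 8.15% of its words with a pseudogene.

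Of the 6 ATPases of the base, 2 were called higher, against 18.7% of all genes tested. PSMC3 and PSMC4 rose, by log2 fold changes of 0.20 (limma adjusted p = 0.0155) and 0.19 (limma adjusted p = 0.0115). PSMC5, at 0.16 (limma adjusted p = 0.0645), and PSMC6, at 0.11 (limma adjusted p = 0.157), did not pass the test. PSMC1 was at 23.6, 22.0 and 23.7 FPKM in vector cells and at 22.6, 23.5 and 22.6 FPKM in shYB1 cells, and PSMC2 was at 25.2, 26.0 and 26.6 FPKM and at 25.1, 25.1 and 25.6 FPKM. Their log2 fold changes were -0.011 (95% interval -0.11 to 0.084) and -0.035 (95% interval -0.12 to 0.048), both overlapping between the groups. PSMC1 shares 95.4% of its transcript words with other annotated transcripts, most of them with the gene NRDE2, which overlaps it on the other strand, and with pseudogenes, so its value is uncertain. The ubiquitin receptor PSMD4 (log2 fold change 0.11), the scaffold PSMD1 (0.14) and the lid subunits PSMD11 (0.11) and PSMD12 (0.15) were above the vector libraries in every shYB1 library, and their limma adjusted p-values lay between 0.0601 and 0.0714. In PSMD3 (0.093) and PSMD6 (0.19) the groups overlapped. PSMC6 shares 23.7% and PSMD4 16.5% of their transcript words with pseudogenes, so their values are uncertain too.

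Summed over subunits, the cap was at 451, 458 and 478 FPKM in vector cells and at 513, 520 and 522 FPKM in shYB1 cells, 1.12 times the vector level. The core sum was 1050.1, 1011 and 1103 FPKM and then 1182, 1195 and 1221 FPKM, 1.14 times the vector level. Neither sum overlapped between the groups. The ratio of cap to core within a library was 0.430, 0.453 and 0.433 in vector cells and 0.434, 0.435 and 0.428 in shYB1 cells, and these values overlapped. Taken instead from the median subunit of each particle, the ratio in shYB1 cells was 0.845 times that in vector cells and the groups did not overlap. The median cap subunit was PSMC1, whose value is uncertain, in 5 of 6 libraries. With PSMC1 left out, an alternative chosen after seeing the data, the ratio was 0.914 times that in vector cells, again without overlap, and the median cap level was 1.07 times the vector level.

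Of the 4 activators, which open the core without ubiquitin, 1 was called higher, PSME4, against 18.7% of all genes tested. PSME4 lost that call in 10 of 15 alternative analyses. PSME4, a nuclear activator, was at 5.38, 5.72 and 4.91 FPKM in vector cells and at 6.46, 6.18 and 5.99 FPKM in shYB1 cells (log2 fold change 0.22, SE 0.067, limma adjusted p = 0.0381). The interferon-inducible pair PSME1 and PSME2 did not pass the test. PSME1 was at 80.4, 81.1 and 87.2 FPKM and at 78.5, 90.5 and 86.4 FPKM, with a log2 fold change of 0.038 that turned to -0.017 with median-of-ratios size factors. PSME2 was at 35.8, 31.9 and 34.8 FPKM and at 35.97, 37.1 and 37.2 FPKM, with a log2 fold change of 0.11 (limma adjusted p = 0.118). Every shYB1 library of PSME2 was above every vector library, whereas those of PSME1 overlapped. The nuclear activator PSME3 had a log2 fold change of 0.11 with overlapping groups.

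Among the ungrouped genes, 3 of 4 were called higher, against 18.7% of all genes tested. POMP, the chaperone that matures the core particle, was at 28.8, 33.6 and 30.8 FPKM in vector cells and at 35.9, 37.2 and 37.9 FPKM in shYB1 cells (log2 fold change 0.25, SE 0.053, limma adjusted p = 0.00701). PSMF1, which encodes an inhibitor of the core, rose from 8.70, 8.64 and 8.42 FPKM to 10.3, 9.75 and 9.78 FPKM (log2 fold change 0.21, limma adjusted p = 0.0104). ADRM1, a ubiquitin receptor of the cap, rose by a log2 fold change of 0.17 (limma adjusted p = 0.0193). SEM1, a small lid subunit, had overlapping groups and a log2 fold change of 0.044, which turned to -0.011 with median-of-ratios size factors.

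Genes that work with the proteasome were counted from lists, which also hold a few members. Of 8 assembly factors tested, POMP included, 4 were higher (50%, against 18.7% of all genes tested) and 0 lower. Their median log2 fold change was 0.21. PSMG1, a chaperone of alpha ring assembly, was at 17.3, 19.3 and 21.9 FPKM in vector cells and at 24.8, 26.8 and 25.6 FPKM in shYB1 cells (log2 fold change 0.40, limma adjusted p = 0.00498). PAAF1, a chaperone of the base, rose by a log2 fold change of 0.27 (limma adjusted p = 0.0198), and POMP is given above. The other was PSMD5, a base chaperone, chosen after its value was seen, at 0.20 (limma adjusted p = 0.0109).

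Of 13 enzymes and shuttle factors that bind the proteasome, ADRM1 included, 6 were higher (46.2%) and 1 lower. Among all genes tested, 18.7% were called higher and 6.93% lower. USP14, a deubiquitinase of the cap, rose from 16.4, 16.1 and 15.3 FPKM to 19.4, 19.5 and 19.7 FPKM (log2 fold change 0.29, limma adjusted p = 0.000934). RAD23B, which carries ubiquitinated proteins to the cap, rose by a log2 fold change of 0.23 (limma adjusted p = 0.00118), and ECPAS, an adaptor of the proteasome, by 0.19 (limma adjusted p = 0.00798). The lower gene was ZFAND5, chosen after its value was seen, which binds and stimulates the proteasome, with a log2 fold change of -0.18 (limma adjusted p = 0.00438). Of 6 genes for ubiquitin and its activating enzymes, 0 passed the limma test in either direction, 1 of them had an unadjusted p under 0.05, and the median log2 fold change was 0.0023.

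Of the 9 genes of the NRF1 axis, 1 was higher, MAFK (11.1%, against 18.7% of all genes tested). In the lower direction there was 1, NFE2L2, against 6.93% of all genes tested. NFE2L1, which encodes NRF1, was at 26.8, 27.6 and 30.2 FPKM in vector cells and at 30.9, 30.2 and 31.1 FPKM in shYB1 cells. These groups met at 30.2 FPKM, and the log2 fold change of 0.13 did not pass the test (limma adjusted p = 0.0766). It passed in 2 of 15 alternatives, with FPKM rescaled to a common total and without vector replicate 3, and the limma adjusted p ran from 0.0117 to 0.262 over the alternatives. MAFK, a small Maf partner of NRF1, rose from 6.10, 5.70 and 6.04 FPKM to 7.66, 7.66 and 7.96 FPKM (log2 fold change 0.38, limma adjusted p = 0.000812). NFE2L2, which encodes the related factor NRF2, had a log2 fold change of -0.12 (limma adjusted p = 0.0407).

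Of the 7 genes of interferon-gamma signalling, 0 were higher and 2 lower, against 18.7% higher and 6.93% lower among all genes tested. Among the lower genes was NLRC5, a transactivator of antigen presentation genes, which had a log2 fold change of -0.21 (limma adjusted p = 0.0428). The immunoproteasome genes gave log2 fold changes from -0.080 to 0.10. Of the neighbours of PSMB8 and PSMB9, TAP2 was higher (log2 fold change 0.20, limma adjusted p = 0.021) and TAP1 did not pass the test. The part of interferon-gamma signalling or of the NRF1 axis in the members' values was not tested.

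Of the 20 calls, 13 were made in all 15 alternative analyses, namely POMP, PSMA3, PSMA4, PSMA5, PSMA7, PSMB2, PSMB3, PSMB4, PSMD2, PSMD7, PSMD8, PSMD14 and PSMF1. The other 7 (ADRM1, PSMB1, PSMB7, PSMC3, PSMC4, PSMD13 and PSME4) were lost in at least 1. Among the 13, the value of PSMD7 is uncertain because of its shared sequence. From the other lists, NFE2L2 and NLRC5 each lost their call in 7 alternatives, TAP2 in 6 and PAAF1 in 5. Leaving out 1 library gave between 14 and 23 members called higher and 0 called lower, with 14 when vector replicate 1 was left out. The share of all genes tested that was called higher then ran from 12.7% (without vector replicate 1) to 18.7% (without vector replicate 3). The differences between the particles in their shares of called members were not tested.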

How the data were processed

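mRNA sequencing of 786-O cells, with 3 shYB1 and 3 vector libraries grouped by the labels, was re-analysed. The authors deposited FPKM, normalized for transcript length and mapped fragments, for 20030 genes. The submitters' processing notes name Trimmomatic, HISAT2, Cufflinks, HTSeq and DESeq and the build GRCh38, without roles or versions. Values were read from 6 library columns, and 0 columns had no matching sample. FPKM totals were 282736 to 295887, and depth is unknown, but the spacing of values under 0.08 FPKM gave relative depths of 0.979 to 1.10.

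Values were transformed to log2(FPKM + 0.1) where the mean reached 1 FPKM (10439 genes) and compared with limma 3.58.1 in R 4.3.3 (expression trend, robust prior, two-sided, Benjamini-Hochberg adjustment over all genes tested). A fold change on this scale understates that of low genes. This step was tested on simulated data. Ratios within libraries were compared with exact permutation tests, in Python 3.11.15 with SciPy 1.17.1. Figures were drawn with matplotlib 3.10.9.

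All genes of pathway hsa03050 except IFNG were named. From each other list, the counts were given with values for up to 3 called genes of largest change and for NFE2L1. Results for some genes of the lists are not reported here. The members and lists were chosen with earlier results of these data known. Promoters were matched to RefSeq by Entrez gene identifier, and shared sequence was measured as 50-base words in GENCODE release 29 transcripts on both strands. Protein sequences of the catalytic subunits were not analysed here. Alternatives covered a pseudocount of 1 or 0.01, no filter, a 5 FPKM filter, median-of-ratios, common-total and quantile scaling, a prior without trend, a replicate block and each library left out.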

Additional observations from a re-analysis of the deposited data

How the results depend on the processing

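The number of members called higher was 20, and also 20 with either other pseudocount. It was 17 without a filter, 22 with a filter at 5 FPKM, 14 with median-of-ratios size factors and 23 rescaled to a common total. Quantile normalization gave 15, and a prior without trend gave 15. The share of all genes tested that was called higher moved too. It was 18.7% in the main analysis, 18.8% and 18.7% with pseudocounts of 1 and 0.01, and 9.89% without a filter. A filter at 5 FPKM gave 26.0%, median-of-ratios size factors 11.4%, a common total 18.6%, quantile normalization 12.1% and a prior without trend 15.9%. The members' median log2 fold change stayed above that of all genes by 0.089 to 0.13 in all 15 alternatives. The replicate block gave 23 members called higher, with no call lost and PSMB6, PSMC5 and PSMD4 gained, against 19.9% of all genes tested. Deviations of same-numbered libraries correlated at -0.169 to -0.00824 and those of different numbers at -0.0507 to 0.113. With 3 libraries per group, these values cannot show whether the numbers mark a shared culture or day.

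Over all genes, 51.7% of calls were in the higher direction with quantile normalization and 48.8% with median-of-ratios size factors, against 73.0% as deposited. With quantile normalization 1 member was called lower, PSMB8, the 1 immunoproteasome gene called lower, at a limma adjusted p of 0.048 (0.048 to 0.693 over the alternatives), and 4 cap genes were called higher. The count of activators called higher was 0 without a filter, with median-of-ratios size factors, with a common total, with quantile normalization and with a prior without trend, and 0 to 1 when a library was left out. The members' median log2 fold change was 0.11 with median-of-ratios size factors and 0.11 with quantile normalization. With these scalings, in this order, PSME1 was at -0.017 and -0.012 and SEM1 at -0.011 and -0.0070. Leaving out a library moved PSMB5 between -0.090 and 0.041, PSMC1 between -0.045 and 0.0080 (0.0047 without vector replicate 1) and PSME1 between -0.0075 and 0.095. None of these passed the test. The ratio in shYB1 over vector cells then ran from 0.899 to 1.0002 for PSMB9/PSMB6 and from 0.906 to 1.02 for PSMB8/PSMB5. The ratio of cap to core was 0.985 from sums, 0.845 from medians and 0.914 from medians with PSMC1 left out, the last chosen after seeing the data. The causes of these changes were not tested. Depth is unknown, so low members such as PSME4 carry an error that could not be set against their counts.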
